A study of Arabidopsis thaliana with 30 samples.

Results

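The genes described here are 10 A. thaliana genes that code for enzymes that remove superoxide and hydrogen peroxide, with the chaperone that loads copper into one class of them. They are the superoxide dismutases CSD1 (AT1G08830), CSD2 (AT2G28190), FSD1 (AT4G25100) and MSD1 (AT3G10920), the copper chaperone CCS (AT1G12520), the catalases CAT1 (AT1G20630), CAT2 (AT4G35090) and CAT3 (AT1G20620), and the ascorbate peroxidases APX1 (AT1G07890) and APX2 (AT3G09640). They were chosen by locus, with earlier results of these data known, and they make up 10 of the 37513 entries of the count table. Transcripts were measured by RNA-seq in leaves of untransformed Columbia plants (WT), of Ah2880 OE plants (line L12) and of AhHAB4-PAI-1 OE plants (line L13). Both transgenes are grain amaranth genes driven by the constitutive 35S promoter in homozygous plants, and each is represented by 1 transgenic line. All plants, WT included, were exposed to 45 °C heat shock (HS) and were 4 weeks old according to the labels. Leaves were taken after 1 h of HS (HS-1), 5.5 h (HS-5) or 11 h (HS-11), or after 22 h of HS followed by 1 day (R-1) or 3 days (R-3) of recovery at 22 °C. Each of these 15 treatments had 2 biological replicates of 10 pooled plants, which gave 30 libraries. According to the paper, HS was given under constant illumination and recovery took place under a light-dark photoperiod. Libraries from plants without HS were not analysed here, so every comparison is between heated plants. Stage, time of day, hours of constant light and plant age cannot be told apart.

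Superoxide formed by the electron transport chains of chloroplasts and mitochondria is converted to hydrogen peroxide by superoxide dismutases, which carry copper and zinc (CSD1 in the cytosol, CSD2 in the chloroplast), iron (FSD1, mainly in the chloroplast) or manganese (MSD1 in the mitochondrion). Hydrogen peroxide is then removed by catalases, most of which reside in peroxisomes and act on the peroxide released by photorespiration, and by ascorbate peroxidases such as the cytosolic APX1 and APX2, which use ascorbate as the electron donor. APX2 is a classic target of heat shock factors in Arabidopsis, and CSD1, CSD2 and CCS are known targets of the microRNA miR398. When copper is scarce, the transcription factor SPL7 is known to activate FSD1 and the miR398 genes, and the copper enzymes then give way to the iron enzyme.

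The miR398 sequences and their sites are shown because CSD2, CCS and CSD1, known targets, were all called higher than in WT in both OE lines at HS-5. The counts of CSD1 cannot be told apart from those of the overlapping gene AT1G08840. Leaving out single libraries lost the CSD1 calls in both lines and the CCS call in L13, as described below. Mature miR398 is made from 3 genes, and the sequences from MIR398B and MIR398C are the same. All sequences in the text were read from the RefSeq assembly TAIR10.1, 5′ to 3′, and the deposited table itself holds no coordinates. Capitals mark the seed, bases 2 to 8, in both forms, which differ only in their last base.
miR398a, chr2:1041012-1041032, plus strand: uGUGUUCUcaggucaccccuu
miR398b and miR398c, chr5:4691107-4691127 and chr5:4694778-4694798, plus strand: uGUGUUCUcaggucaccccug
The place that pairs best without gaps in each target transcript follows, with capitals for the bases that form Watson-Crick pairs with miR398.
CSD1, chr1:2827177-2827685, plus strand, 5′ UTR, split by an intron: AAGGGGUuuCCUGAGAuCACA
CSD2, chr2:12015572-12015592, plus strand, coding: ugcGGGUGACCUGgGAAacau
CCS, chr1:4267521-4267541, minus strand, coding: AuuGGGaGACCUGgGAACACu
Each place was paired with the form that scored better, miR398a for CSD1 and CCS, and the form of miR398b and miR398c for CSD2. The CSD1 and CCS places had 18 and 16 Watson-Crick pairs of 21 with miR398a. In both, the first base pairs with the last base of miR398a but not with that of the other form. A pairing as good as theirs, by a penalty that counts mismatches and G:U pairs and doubles them at positions 2 to 13, was found in 0.033% of 27444 protein-coding transcripts. The CSD2 place, with 13 Watson-Crick and 3 G:U pairs, was matched or bettered by 29.1% of transcripts in this ungapped search.

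The libraries held 46825 to 5739590 gene counts each. The WT R-3 libraries held only 46825 and 50677 counts, and the others held at least 686550. Counts of 3 or fewer were treated as at the detection floor. A count of 3 corresponds to 34.6 and 37.8 CPM (counts scaled to a common library total of 1e+06) in the WT R-3 libraries and to 0.477 to 4.44 CPM elsewhere. APX2, CSD1, CSD2 and FSD1 each had 3 or fewer counts in at least 1 of the WT R-3 libraries. Summed leaf markers (4 genes of photosynthesis) ranged from 1164 CPM in a WT R-3 library to 44394 CPM in L13 HS-1, summed seed markers did not exceed 1.40 CPM and root markers 2.14 CPM. Flower markers (3 genes) reached 57.6 CPM, nearly all of it from PISTILLATA. All 10 members passed the filter on low counts, as did 19761 genes in all. CPM values below are scaled by TMM factors (0.587 to 1.72), which correct for a few genes that take up much of a library. In bulk leaves, fewer cells of a type and less RNA per cell cannot be told apart. Tests are edgeR's quasi-likelihood tests with Benjamini-Hochberg adjustment over all genes tested, a change is called at an adjusted p under 0.01, and with 2 libraries per treatment the fold changes are given as log2 with their standard error (SE).

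Per kilobase of exon, CAT3 and CAT2 had the highest median levels over the 14 treatments other than WT R-3, at 323 and 308 CPM per kb. CAT3 ranged from 170 to 722 CPM per kb, and CAT2 from 169 to 1344, with the 3 lines at HS-1 and L13 at HS-5 above every CAT3 value. FSD1, APX1, CSD2 and MSD1 followed, with medians of 124, 105, 104 and 100 CPM per kb. The lowest medians were those of APX2 (52.7), CCS (44.3), CAT1 (44.3) and CSD1 (24.1 CPM per kb). The members differed far more in how much they moved. The highest and lowest treatment means were 64.5-fold apart for APX2 and 24.2-fold for FSD1, but only 2.15-fold apart for MSD1. The other 7 members had ranges of 3.98-fold (CSD1) to 9.19-fold (CSD2). The peaks fell at different stages: APX1, APX2, CAT2, CSD2 and FSD1 were highest in L13 HS-1, CAT3 in L12 HS-5, MSD1 in WT HS-11, CSD1 and CCS in L12 R-1, and CAT1 in L13 R-1. The counts of CSD1 cannot be told apart from those of an overlapping gene, as described below. Its rank, range and peak here may therefore not be those of the CSD1 transcript.

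**Figure D1:**
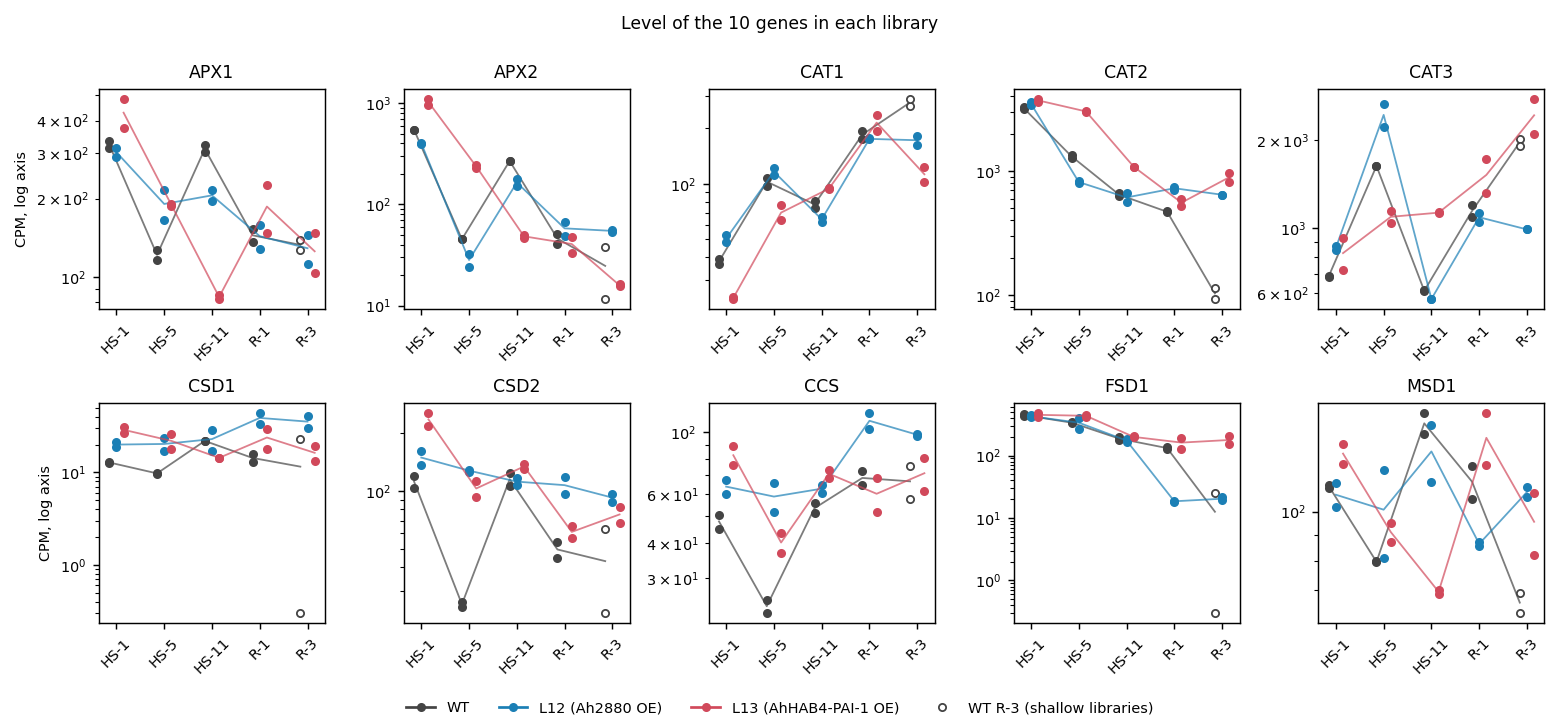
CPM (log axis) of each of the 10 genes in every library, by stage; points are the 2 replicates, lines join their means, colors mark the lines and open points the shallow WT R-3 libraries. Libraries with 0 counts (1 WT R-3 library each for CSD1 and FSD1) are drawn at 0.3 CPM. APX2 spans 64.5-fold outside WT R-3, while MSD1 spans 2.15-fold.

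The comparison of each OE line with WT at the same stage asks which of these genes the transgenic plants express differently under HS and in recovery. In L13, 8 of the 10 members were called at HS-5, where 17.3% of all genes tested were called (8.61% higher and 8.68% lower). CSD1, CSD2, CCS, APX1, APX2 and CAT2 were higher than in WT, and CAT1 and CAT3 were lower. In L12, 7 members were called at that stage (22.1% of all genes, 12.1% higher and 9.98% lower), of which CSD1, CSD2, CCS, APX1 and CAT3 were higher, and APX2 and CAT2 were lower. The median log2 fold change of the members at HS-5 was 0.70 in L13 and 0.46 in L12, beside -0.05 and 0.04 over all genes. Both OE lines were compared with the same WT libraries.

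At HS-1, 4 members were called in L13 (APX2, CSD1, CSD2 and CCS, all higher) where 13.5% of all genes were called (6.77% higher and 6.74% lower). None was called in L12 by edgeR, where 4.49% of all genes were called (2.98% higher and 1.51% lower). In that comparison 6 members had an unadjusted p under 0.05, and the DESeq2 Wald test called 1, APX2, whose edgeR adjusted p was 0.0100388. At HS-11, 5 members were called in L13 (CAT2 and CAT3 higher, APX1, APX2 and MSD1 lower) and 2 in L12 (APX1 and APX2, both lower), beside 53.1% (29.5% higher and 23.6% lower) and 8.87% (3.89% higher and 4.98% lower) of all genes. The L13 share of members thus did not exceed the share of all genes at HS-11. After 1 day of recovery L12 had 5 members called (CAT2, CSD1, CSD2 and CCS higher, FSD1 lower, 29.2% of all genes called, 11.1% higher and 18% lower) and L13 none (7.13% of all genes, 4.71% higher and 2.42% lower), with 4 members of L13 at an unadjusted p under 0.05 and 0 called by DESeq2. At R-3, 2 members were called in L12 (CAT2 higher, CAT3 lower, 5.22% of all genes, 4.1% higher and 1.11% lower) and 3 in L13 (CAT2 and FSD1 higher, CAT1 lower, 16.2% of all genes, 11.7% higher and 4.5% lower). The median log2 fold change of all genes was 1.03 and 1.51 in those comparisons with the shallow WT R-3 libraries, and the values for R-3 are to be read against it. With other scalings it was 0.14 to 0.79 in L12 and 0.53 to 1.23 in L13.

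**Figure D2:**
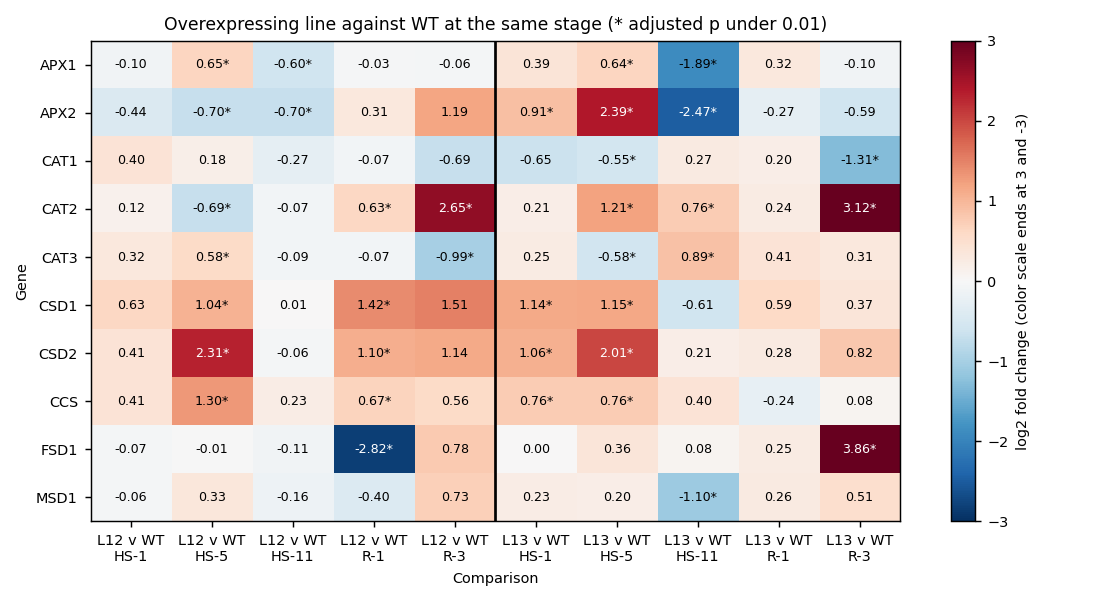
log2 fold change of each gene (rows) in L12 and L13 against WT at the same stage (columns), with red for higher and blue for lower; an asterisk marks an adjusted p under 0.01 and the color scale ends at 3 and -3. CSD1, CSD2 and CCS were higher than in WT in both lines at HS-5, whereas APX2 was lower in L12 (-0.70) and higher in L13 (2.39). The counts of CSD1 cannot be told apart from those of the overlapping gene AT1G08840.

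CSD2, the copper/zinc superoxide dismutase of the chloroplast, set WT apart from both OE lines at HS-5. In WT it was at 104 and 119 CPM at HS-1, 24.9 and 26.4 at HS-5, 106 and 124 at HS-11, and 54.2 and 44.8 at R-1. In L12 the corresponding values were 162 and 136, 129 and 126, 107 and 116, and 118 and 95.8 CPM. The WT libraries therefore passed through a trough at HS-5 that the L12 libraries did not show. In L13, CSD2 stood at 255 and 217 CPM at HS-1, 92.7 and 113 at HS-5, 130 and 138 at HS-11, and 65.6 and 56.6 at R-1. The log2 fold change against WT at HS-5 was 2.31 (SE 0.15, adjusted p = 2.48e-18) in L12 and 2.01 (SE 0.16, adjusted p = 7.14e-15) in L13. From HS-1 to HS-5 the transcript fell by 2.12 on the log2 scale in WT (SE 0.15, adjusted p = 5.91e-18) and by 1.17 in L13 (SE 0.15, adjusted p = 5.38e-09), and its change in L12 was -0.22 (SE 0.13, adjusted p = 0.172). The changes in L12 and L13 both differed from that in WT, by 1.90 (SE 0.20, adjusted p = 3.86e-10) and 0.95 (SE 0.21, adjusted p = 0.000918). The second of these differences was lost without WT HS-1 replicate 2 (0.84), WT HS-5 replicate 1 (0.90), L13 HS-1 replicate 2 (0.82) or L13 HS-5 replicate 2 (0.79). At R-1, CSD2 was higher in L12 than in WT by 1.10 (SE 0.16, adjusted p = 1.11e-07), while the L13 and WT values lay next to each other (0.28, SE 0.15, adjusted p = 0.25).

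CCS, the chaperone that delivers copper to CSD1 and CSD2, followed CSD2 in WT through HS, falling to HS-5 and rising to HS-11, but not into recovery, where CSD2 fell (-1.24, SE 0.16, adjusted p = 8.87e-10) and CCS did not change at the threshold (0.35, SE 0.17, adjusted p = 0.0705). Its WT values were 50.6 and 45.1 CPM at HS-1, 22.5 and 25.1 at HS-5, 51.1 and 55.6 at HS-11, and 72.5 and 64.5 at R-1. In L12 they were 67.3 and 60.2, 65.9 and 51.6, 64.7 and 60.7, and 117 and 102 CPM. No step of L12 within HS was called, and CCS rose there by 0.79 on the log2 scale from HS-11 to R-1 (SE 0.17, adjusted p = 6.93e-05). In L13 the values were 88.8 and 76.4 at HS-1, 36.9 and 43.5 at HS-5, 73.1 and 68.7 at HS-11, and 68.3 and 51.9 at R-1. At HS-5, CCS was above WT by 1.30 in L12 (SE 0.16, adjusted p = 2.46e-09) and by 0.76 in L13 (SE 0.19, adjusted p = 0.00163), and at HS-1 by 0.76 in L13 (SE 0.17, adjusted p = 0.000689). At R-1 it was 0.67 higher in L12 than in WT (SE 0.15, adjusted p = 0.000326), and the L12 replicates did not overlap those of WT or L13. From HS-1 to HS-5 it fell by 1.01 in WT and L13 alike. Several CCS calls rested on single libraries. The L13 call at HS-5 was lost without WT HS-5 replicate 1 (0.68) or L13 HS-5 replicate 2 (0.64), that at HS-1 without WT HS-1 replicate 2 or L13 HS-1 replicate 1 (both 0.68), and the L12 call at R-1 without L12 R-1 replicate 1 (0.58). On library totals the L13 call at HS-5 was also lost (0.57).

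CSD1, the cytosolic copper/zinc enzyme, was counted at a low level, with at most 88 counts in any library. In WT it was at 12.7 and 12.8 CPM at HS-1, 9.62 and 9.86 at HS-5, 21.8 and 22.0 at HS-11, and 15.8 and 12.8 at R-1. In L12 it was at 21.0 and 18.9, 23.4 and 17.2, 17.0 and 28.8, and 43.9 and 33.7 CPM. In L13 it was at 31.1 and 26.6, 25.8 and 18.0, 14.3 and 14.4, and 29.8 and 17.8 CPM. CSD1 was higher than in WT at HS-5 in L12 (1.04, SE 0.24, adjusted p = 0.00059) and L13 (1.15, SE 0.28, adjusted p = 0.00136), at HS-1 in L13 (1.14, SE 0.30, adjusted p = 0.00326) and at R-1 in L12 (1.42, SE 0.26, adjusted p = 1.10e-05). The HS-5 calls were lost without WT HS-5 replicate 1 (1.02 in L12 and 1.14 in L13) or without replicate 1 of the OE line (0.82 and 0.88), and the HS-1 call was lost without any one of its 4 libraries (1.06 to 1.28). On library totals the HS-1 call was also lost (0.91). The R-1 call in L12 was kept under every alternative run, none of which separates CSD1 from the overlapping gene described next. At R-3, CSD1 had 0 and 2 counts in WT, and the ratio of L12 to WT was 2.82 with a 95% counting interval of 0.765 to 23.6.

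CSD1 and CAT2 are the members that overlap another gene in the annotation. CSD1 (chr1:2827060-2829315, plus strand) overlaps the end of AT1G08840, a gene on the minus strand, by 211 bases, of which 41 lie in exons of both. The strand setting of the counting is not given in the sources used here, so reads from the overlap may have been counted for either gene or for both. Across the 15 treatment means, the count pattern most like that of CSD1 was that of AT1G08840 (Pearson r = 0.98). That neighbour ranged from 8.68 CPM in WT HS-5 to 39.5 CPM in L12 R-1. In the L12 R-1 libraries it had 39 and 48 counts, and CSD1 had 39 and 46. Both genes had 20 and 32 counts in WT HS-11 and 0 and 2 in WT R-3. In L13 R-3 the neighbour had 83 and 61 counts and CSD1 had 84 and 57. The counts lay further apart in WT HS-1, at 51 and 57 for the neighbour and 39 and 45 for CSD1. The counts of the 2 genes were thus close in level as well as in pattern, and how many reads they share was not tested. The neighbour was also called in comparisons where CSD1 was. It was higher than in WT at HS-5 in L12 (1.23, SE 0.25, adjusted p = 7.15e-05) and L13 (1.25, SE 0.29, adjusted p = 0.000748). In L12 at R-1 it was also higher (1.22, SE 0.25, adjusted p = 7.89e-05), and in L13 at HS-1 it was not called (0.87, SE 0.28, adjusted p = 0.01875). CSD1 and AT1G08840 can therefore not be told apart in these counts. CAT2 shares 95 exon bases with AT4G35080 on the opposite strand, whose mean was 21.4 to 64.4 CPM outside WT R-3, far under the levels of CAT2.

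The precursors of miR398 were measured in the same libraries, and mature miR398 was not. MIR398B was at 16.0 and 15.4 CPM in WT HS-1, 121 and 127 in WT HS-5, 64.2 and 55.6 in WT HS-11, and 1.36 and 2.39 in WT R-1. In L12 it was at 12.6 and 13.9, 40.8 and 36.6, 107 and 157, and 0 and 0.73 CPM. In L13 it was at 11.8 and 11.9, 98.98 and 97.5, 87.6 and 86.7, and 4.06 and 2.03 CPM. The WT maximum fell at HS-5, as did the WT trough of CSD2 and CCS. The L12 maximum came at HS-11, and the R-1 libraries held at most 4.06 CPM. MIR398B was lower in L12 than in WT at HS-5 by 1.68 on the log2 scale (SE 0.15, adjusted p = 2.93e-13) and higher at HS-11 by 1.13 (SE 0.18, adjusted p = 5.70e-06). In L13 MIR398B differed from WT by -0.34 at HS-5 (SE 0.15, adjusted p = 0.0897), and CSD2 was 2.01 higher at that stage. At HS-11 MIR398B was highest in L12, while CSD2 was at 107 and 116 CPM in L12 and at 106 and 124 in WT. MIR398C was lower at HS-5 in both L12 (-0.69, SE 0.15, adjusted p = 0.000208) and L13 (-1.03, SE 0.17, adjusted p = 5.93e-06), and lower at R-1 in L12 (-1.02, SE 0.24, adjusted p = 0.000464). At HS-11 MIR398C was higher in L12 (0.90, SE 0.18, adjusted p = 0.00025) and MIR398B was higher in L13 (0.56, SE 0.17, adjusted p = 0.00472). MIR398A had at most 1.09 CPM in any treatment and was not tested. Whether the precursors and the CSD transcripts are linked in these plants was not tested.

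**Figure D3:**
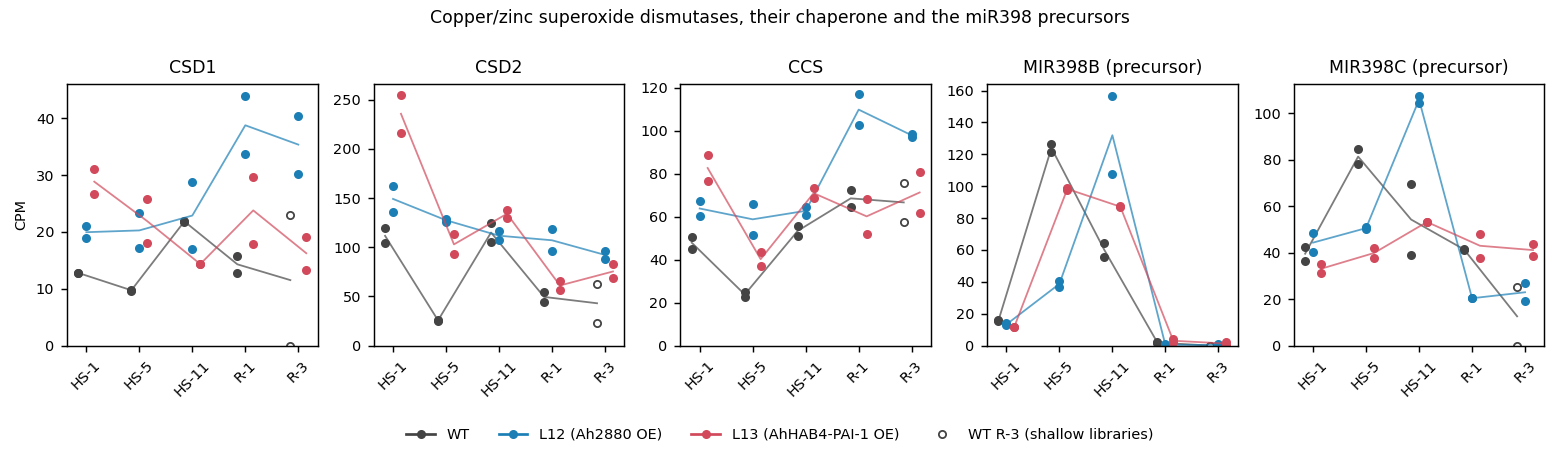
CPM (linear axes from 0) of CSD1, CSD2, CCS and the precursors MIR398B and MIR398C by stage; points are the 2 replicates of each line, lines join means and open points are the shallow WT R-3 libraries. WT has its lowest CSD2 (24.9 and 26.4 CPM) and its highest MIR398B (121 and 127 CPM) at HS-5.

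FSD1, the iron superoxide dismutase, gave the largest difference between an OE line and WT at R-1 among the members. In WT it was at 431 and 459 CPM at HS-1, 333 and 339 at HS-5, and 175 and 198 at HS-11. In L12 the values were 443 and 408, 404 and 267, and 183 and 164 CPM, and in L13 they were 481 and 416, 448 and 418, and 203 and 195 CPM. FSD1 fell from HS-5 to HS-11 in all 3 lines, and no OE line differed from WT at the threshold during HS. At R-1, FSD1 was at 136 and 127 CPM in WT and 193 and 129 in L13, but at 18.0 and 19.0 CPM in L12 (16 and 26 counts). The L12 value was lower than that of WT by a log2 fold change of -2.82 (SE 0.25, adjusted p = 3.94e-14) and remained at 19.1 and 21.6 CPM at R-3. From HS-11 to R-1 it fell by 3.22 on the log2 scale in L12 (SE 0.25, adjusted p = 8.67e-17) and fell by 0.51 in WT (SE 0.16, adjusted p = 0.00483), and these changes differed by -2.71 (SE 0.31, adjusted p = 5.44e-10). The WT fall was lost with the DESeq2 Wald test and without WT HS-11 replicate 2 (-0.41), WT R-1 replicate 1 (-0.57) or WT R-1 replicate 2 (-0.46), and it turned to 0.36 (adjusted p = 0.023) on library totals without TMM factors. L13 kept 152 and 204 CPM at R-3 and exceeded L12 by 3.06 at R-1 (SE 0.25, adjusted p = 1.61e-15) and by 3.09 at R-3 (SE 0.21, adjusted p = 1.08e-18). In WT R-3, FSD1 had 2 and 0 counts, so the ratio of L13 to WT was 13.98 with a 95% counting interval of 3.86 to 116, and the call was lost without WT R-3 replicate 2 (2.77). All 4 leaf markers were higher in that comparison too. The summed leaf markers averaged 7969 CPM in WT R-1 and 6583 CPM in L12 R-1, and their part in the FSD1 difference was not tested.

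FSD1 lies at chr4:12884300-12887011 on the minus strand. The 250 bases before its start are shown with GTAC, the core that SPL7 binds, in capitals.
FSD1 promoter, chr4:12887012-12887261, minus strand: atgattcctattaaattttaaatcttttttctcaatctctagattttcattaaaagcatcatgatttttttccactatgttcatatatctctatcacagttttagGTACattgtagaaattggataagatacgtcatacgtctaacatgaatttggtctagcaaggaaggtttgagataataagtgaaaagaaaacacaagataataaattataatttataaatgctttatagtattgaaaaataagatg
GTAC, which reads the same on both strands, was found in 39.0% of 27443 windows from 250 bases before to 50 bases after the start of protein-coding genes, and also in those of CSD1, CCS, CAT2, CAT3 and APX2, so the match does not set FSD1 apart. SPL7 itself was at 37.6 and 38.5 CPM in WT R-1 and 49.6 and 45.4 in L12 R-1 (0.31, SE 0.18, adjusted p = 0.162).

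Copper and iron genes were followed as a list of 16, of which 15 were tested, and all of those that differed are named, chosen after their values were seen. In L12 at R-1, 7 of the 15 were lower than in WT and none was higher, with a list median of -0.99 beside -0.28 over all genes, of which 18% were lower and 11.1% higher. The leaf marker CAB1 was also lower in that comparison (1 of 4 leaf markers), and its part was not tested. The lower genes were the plastocyanins DRT112 (-1.30, SE 0.13, adjusted p = 1.19e-11) and PETE1 (-1.25, SE 0.16, adjusted p = 6.80e-09), the ferritins FER1, FER3 and FER4, the copper chaperone CCH and MIR398C. FER4 had the lowest value of the list (-2.31, SE 0.42, adjusted p = 8.92e-06), at 1 and 6 counts in L12 R-1 and 58 and 71 in WT R-1. The plastocyanins carry copper in photosynthesis and the ferritins store iron, and the part of metal supply in these values was not tested.

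MSD1, the manganese enzyme of mitochondria (chr3:3417940-3419892, plus strand), varied least among the members. It was at 113 and 112 CPM in WT HS-1, 79.8 and 79.3 in HS-5, 157 and 142 in HS-11, and 123 and 106 in R-1. L12 values ranged from 81.1 to 148 CPM and crossed those of WT, and no L12 comparison with WT was called. In L13, MSD1 was at 124 and 136, 87.1 and 95.0, 68.8 and 70.1, and 156 and 123 CPM at the same stages. The L13 libraries were thus lowest at HS-11, where the WT libraries were highest. The log2 fold change of L13 against WT there was -1.10 (SE 0.15, adjusted p = 1.57e-08), while the median over all genes was 0.30, and on library totals without TMM factors it was -0.37 and not called (adjusted p = 0.0171).

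CAT2, the main leaf catalase, fell during HS at a pace that differed between the lines. At HS-1 the 6 libraries lay close together, between 3143 CPM in WT and 3808 CPM in L13. At HS-5 CAT2 was at 1279 and 1347 CPM in WT, 826 and 804 in L12, and 3074.7 and 2983 in L13. The order L13 above WT above L12 held for all 6 libraries, with log2 fold changes against WT of 1.21 in L13 (SE 0.11, adjusted p = 3.20e-13) and -0.69 in L12 (SE 0.11, adjusted p = 9.58e-07). At HS-11 the values were 661 and 624 CPM in WT, 564 and 660 in L12, and 1088 and 1080 in L13, and only L13 differed from WT (0.76, SE 0.11, adjusted p = 5.91e-08). The change from HS-1 to HS-5 differed from that of WT in both lines, upward by 1.00 in L13 (SE 0.15, adjusted p = 1.58e-06) and downward by 0.81 in L12 (SE 0.15, adjusted p = 0.000125). In recovery, WT went down further, to 473 and 465 CPM at R-1 and 113 and 92.2 at R-3 (9 and 8 counts), while L12 held 748 and 705 and then 645 and 643. L13 stood at 594 and 518 CPM at R-1 and 819 and 964 at R-3. The WT fall from HS-11 to R-1 (-0.45) turned to 0.42 on library totals without TMM factors. L12 was above WT by 0.63 at R-1 (SE 0.11, adjusted p = 7.98e-06) and by 2.65 at R-3 (SE 0.26, adjusted p = 3.41e-11), and L13 by 3.12 at R-3 (SE 0.25, adjusted p = 4.47e-15), beside medians of all genes of 1.03 and 1.51 at that stage. All 4 leaf markers were also higher at R-3 in both OE lines, with medians of 2.36 in L12 and 4.01 in L13, and their part in the CAT2 values was not tested.

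CAT3, a catalase whose transcript is known to peak in the evening in light-dark cycles, moved the other way. At HS-1 it was at 688 and 685 CPM in WT, 871 and 847 in L12, and 925 and 722 in L13. At HS-5 it reached 1637 and 1633 CPM in WT and 2667 and 2220 in L12, with 1149 and 1042 in L13. The order of the lines was the reverse of that for CAT2, again without overlap, with log2 fold changes against WT of 0.58 in L12 (SE 0.12, adjusted p = 0.000141) and -0.58 in L13 (SE 0.12, adjusted p = 0.000242). The L12 call was lost when only the 4 libraries compared were fitted (0.54, adjusted p = 0.0321) and the L13 call without L13 HS-5 replicate 2 (-0.51). At HS-11, WT and L12 had returned to 616 and 609 and to 573 and 575 CPM, but L13 stayed at 1127 and 1138, which was 0.89 above WT (SE 0.13, adjusted p = 2.85e-08). In recovery CAT3 was at 1201.5 and 1093 CPM in WT R-1, 1131 and 1054 in L12 R-1 and 1722 and 1325 in L13 R-1. At R-3 it was at 2028 and 1914 CPM in WT (161 and 166 counts), 993 and 992 in L12, and 2105 and 2767 in L13. L12 was lower than WT at R-3 by 0.99 on the log2 scale (SE 0.15, adjusted p = 1.71e-06), although the median of all genes was 1.03 higher, and the call was lost without WT R-3 replicate 2 (-0.70).

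CAT1 was the least abundant catalase, and its level was highest in recovery. It was at 36.9 and 39.1 CPM in WT HS-1, 52.6 and 48.5 in L12 HS-1, and 23.7 and 24.5 in L13 HS-1. By R-1 it had reached 194 and 176 CPM in WT, 175 and 176 in L12, and 236 and 194 in L13, and the lines overlapped. At HS-5 L13 (63.4 and 76.4 CPM) was under WT (108 and 97.5) by 0.55 on the log2 scale (SE 0.14, adjusted p = 0.002), a call lost without WT HS-5 replicate 1 (-0.47) or L13 HS-5 replicate 1 (-0.43). At R-3 L13 had gone down to 102 and 124 CPM, against 182 and 163 in L12, and was under L12 by 0.62 (SE 0.12, adjusted p = 2.88e-05). Against WT R-3, where CAT1 had 21 and 25 counts, the value was -1.31 (SE 0.24, adjusted p = 2.16e-05).

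The balance between the catalases can be read without any scaling, as the share of each gene in the catalase counts of a library. CAT2 made up 79.2% to 82.9% of them in the 6 HS-1 libraries. At HS-5 its share was 42.3% and 43.8% in WT, 22.8% and 25.6% in L12, and 71.7% and 72.7% in L13, while that of CAT3 was 54.1% and 53.1%, 73.8% and 70.8%, and 26.8% and 25.4%. At HS-11 the lines had converged, with 46.7% to 50.9% CAT2 in all 6 libraries. The share of CAT2 at R-1 was 25.3% and 26.8% in WT, 36.4% in both L12 libraries, and 23.3% and 25.4% in L13. By R-3 it was 4.71% and 4.02% in WT (of 191 and 199 catalase counts), 35.4% and 35.8% in L12, and 27.1% and 25.0% in L13. The proteins are alike, with 86.8% identity between CAT1 and CAT2 and 77.6% between CAT2 and CAT3 over the aligned residues, but the longest stretch of identical bases in any pair of the catalase transcripts was 32.

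**Figure D4:**
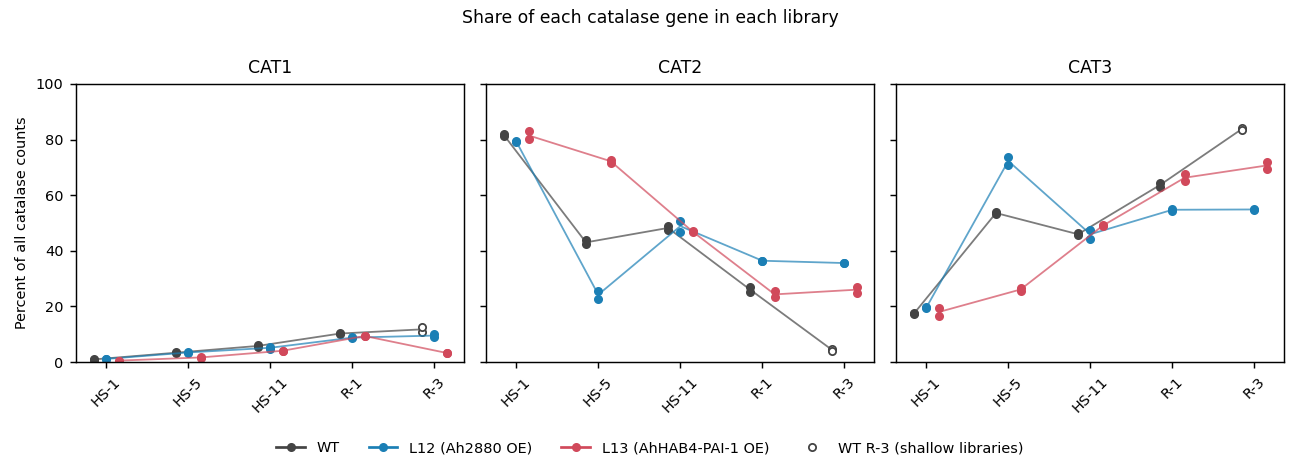
Percent of all catalase counts in a library that fell to CAT1, CAT2 and CAT3, by stage (linear axes, 0 to 100); points are the 2 replicates of each line, lines join means and open points are WT R-3. At HS-5 the CAT2 share was 71.7% and 72.7% in L13, 42.3% and 43.8% in WT, and 22.8% and 25.6% in L12.

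CAT3 (chr1:7142972-7146540) and CAT1 (chr1:7146636-7150180) are neighbours on the plus strand of chromosome 1, and CAT2 lies at chr4:16700312-16703504 on the minus strand. The 250 bases before the start of CAT3 are shown because they hold, in capitals, AAAATATCT, the evening element bound by clock proteins.
CAT3 promoter, chr1:7142722-7142971, plus strand: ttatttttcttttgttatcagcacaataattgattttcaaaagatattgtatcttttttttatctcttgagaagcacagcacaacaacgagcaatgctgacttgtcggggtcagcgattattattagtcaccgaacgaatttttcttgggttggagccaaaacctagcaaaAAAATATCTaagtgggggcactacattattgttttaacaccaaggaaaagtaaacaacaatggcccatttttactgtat
AAAATATCT was searched on both strands and was found in 2.82% of the 27443 windows, and among the members only in that of CAT3. The hours of sampling are not given in the sources used here, and HS ran under constant light. The part of the clock in these values was not tested.

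Genes of photorespiration, the pathway whose peroxide CAT2 removes, were followed as a list of 10 that includes the catalase partners NCA1 and LSD1. In L13 at HS-5, 8 of the 10 were higher than in WT and none was lower (8.61% and 8.68% of all genes), with a list median of 0.82 beside -0.05 over all genes. The peroxide-producing glycolate oxidases GLO1 (chosen, like GLO2, after its values were seen, 0.86, SE 0.12, adjusted p = 2.28e-07) and GLO2 (0.87, SE 0.13, adjusted p = 6.96e-07) were among them, and since these neighbouring paralogs are close copies, reads may have been split between them. Leaf markers moved with them, 2 of 4 being higher, and their part was not tested. At HS-11, 7 of the 10 were lower in L13 than in WT (23.6% of all genes), as were 3 of 4 leaf markers, the lowest being SHM1, a mitochondrial serine hydroxymethyltransferase (-1.39, SE 0.16, adjusted p = 5.45e-11), and AGT1 was higher (0.35, SE 0.11, adjusted p = 0.00617). CAT2 was higher in L13 at both stages. In L12 at R-1, 3 were higher, led by the glycerate kinase GLYK (0.92, SE 0.14, adjusted p = 2.54e-07), and none was lower (11.1% and 18% of all genes).

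APX2, a cytosolic ascorbate peroxidase, was the most variable member, with L13 above WT and L12 at HS-1 and HS-5 and below both at HS-11. At HS-1 it was at 543 CPM in both WT libraries, 402 and 398 in L12, and 1096 and 950 in L13. At HS-5 it was at 45.1 and 45.3 CPM in WT, 32.1 and 24.3 in L12, and 229 and 245 in L13. At HS-11 WT had come back to 267 and 270 CPM and L12 to 178 and 150, whereas L13 had gone down to 46.9 and 49.8. The lines did not overlap at any of these stages. L13 exceeded WT by 0.91 at HS-1 (SE 0.12, adjusted p = 2.72e-08) and by 2.39 at HS-5 (SE 0.14, adjusted p = 6.65e-20), and was below it by -2.47 at HS-11 (SE 0.14, adjusted p = 8.90e-22). L12 was lower than WT at HS-5 (-0.70, SE 0.16, adjusted p = 0.000715) and HS-11 (-0.70, SE 0.14, adjusted p = 0.000191). The HS-5 call was lost without L12 HS-5 replicate 2 (-0.49), and the HS-11 call without L12 HS-11 replicate 2 (-0.59) and on library totals (-0.44).

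From HS-5 to HS-11 APX2 rose by 2.57 on the log2 scale in WT (SE 0.14, adjusted p = 5.19e-22) and by 2.56 in L12 (SE 0.16, adjusted p = 4.83e-20), and it fell by 2.29 in L13 (SE 0.14, adjusted p = 9.49e-20). The difference between the L13 and WT changes was -4.86 (SE 0.20, adjusted p = 1.32e-27), the largest of the 60 such differences tested for the members. In recovery APX2 was at 33.1 to 67.6 CPM in the R-1 libraries of all lines, and no line differed from WT. At R-3 it was at 53.5 and 55.8 CPM in L12 and at 16.2 and 15.5 in L13, with L13 lower by 1.78 on the log2 scale (SE 0.19, adjusted p = 8.86e-12). WT R-3 held 3 and 1 counts.

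HSFA2, the heat shock factor known to drive APX2 in Arabidopsis, was measured in the same libraries. At HS-1 it was at 2735 and 2753 CPM in WT, 2091 and 2186 in L12, and 5812 and 6191 in L13. At HS-5 it was at 751 and 704, 194 and 233, and 1304.9 and 1469 CPM. At HS-11 it was at 1813 and 2312, 1449 and 1217, and 283 and 257 CPM. The order of the lines was the same as for APX2 at each of these 3 stages. HSFA2 was higher in L13 than in WT at HS-5 (0.93, SE 0.12, adjusted p = 1.57e-08) and lower at HS-11 (-2.93, SE 0.13, adjusted p = 1.62e-26), and lower in L12 at HS-5 (-1.77, SE 0.13, adjusted p = 1.40e-16). In recovery HSFA2 was at most 34.6 CPM, with 2 and 3 counts in WT R-3, while APX2 remained at 11.5 to 67.6 CPM. At R-1 HSFA2 was lower in L13 than in WT (-1.74, SE 0.29, adjusted p = 8.54e-06), at 8 and 24 counts in L13. For APX2 no line differed from WT at that stage.

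**Figure D5:**
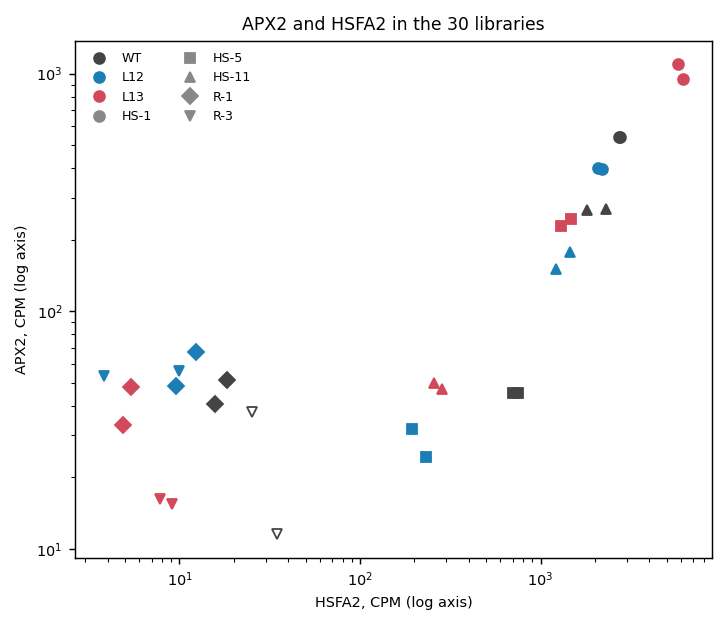
APX2 against HSFA2 in the 30 libraries (both in CPM, log axes); colors mark the lines, shapes the stages and open symbols the shallow WT R-3 libraries. L13 moves from the highest values of both genes at HS-1 (APX2 at 1096 and 950 CPM) to low values at HS-11 (46.9 and 49.8 CPM), where WT and L12 are higher.

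APX2 lies at chr3:2956156-2958330 on the plus strand. The 250 bases before its start are shown with the matches to the core heat shock element in capitals.
APX2 promoter, chr3:2955906-2956155, plus strand: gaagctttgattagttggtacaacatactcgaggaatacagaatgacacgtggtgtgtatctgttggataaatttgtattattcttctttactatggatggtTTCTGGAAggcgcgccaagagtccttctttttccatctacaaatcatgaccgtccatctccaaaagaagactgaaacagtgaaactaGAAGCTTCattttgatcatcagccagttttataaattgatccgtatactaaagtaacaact
The element was searched as GAANNTTC or TTCNNGAA, each of which reads the same on both strands, and APX2 had 2 matches, both before the start. CAT1 also had 2, and APX1, CAT2 and CAT3 had 1 each, the last pair after the start. At least 1 match was found in 19.3% of the 27443 windows.

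APX1, the main cytosolic ascorbate peroxidase of leaves, moved in the same directions as APX2 in WT during HS, with smaller steps, but not in the OE lines throughout. In WT it was at 333 and 313 CPM at HS-1, 116 and 127 at HS-5, 321 and 301 at HS-11, and 153 and 136 at R-1. In L12 it was at 314 and 290, 217 and 165, 196 and 216, and 159 and 128 CPM. In L13 it was at 484 and 374, 191 and 188, 81.9 and 85.3, and 225 and 148 CPM. The rebound of WT at HS-11 (1.35, SE 0.15, adjusted p = 7.36e-11) was thus missing from L12 (0.11, SE 0.15, adjusted p = 0.556), and L13 fell instead by 1.18 (SE 0.16, adjusted p = 3.45e-08). Both differed from WT in that change, L12 by -1.24 (SE 0.22, adjusted p = 1.52e-05) and L13 by -2.53 (SE 0.22, adjusted p = 2.26e-14). L13 was lower than WT at HS-11 by a log2 fold change of -1.89 (SE 0.16, adjusted p = 2.07e-15). At HS-5, APX1 was higher than in WT in L12 (0.65, SE 0.15, adjusted p = 0.000456) and L13 (0.64, SE 0.16, adjusted p = 0.00128), and at HS-11 it was lower in L12 (-0.60, SE 0.16, adjusted p = 0.00575). These 3 calls rested on single libraries. Those at HS-5 were lost without WT HS-5 replicate 1 (0.58 in L12 and 0.57 in L13) or without replicate 1 of the OE line (0.44 and 0.63), and in L13 also without L13 HS-5 replicate 2 (0.65). The HS-11 call in L12 was lost without any one of its 4 libraries (-0.67 to -0.52). With the DESeq2 Wald test the HS-11 call in L12 (-0.64, adjusted p = 0.0142) and the HS-5 call in L13 (0.63, adjusted p = 0.012) were lost too. Both were also lost on library totals (-0.34 and 0.445). The protein is 78.3% identical to APX2 over the aligned residues, but the transcripts share no stretch of more than 12 identical bases.

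Changes from one stage to the next asked how each line moved through HS and into recovery. In WT, 8 members changed from HS-1 to HS-5 (38.8% of all genes), 9 from HS-5 to HS-11 (49.5%), 7 from HS-11 to R-1 (55.5%) and 3 from R-1 to R-3 (11.9%). Of those in WT at HS-5, only CAT1 and CAT3 rose, and at HS-11 APX1, APX2, CSD1, CSD2, CCS and MSD1 rose while CAT2, CAT3 and FSD1 fell. In L12 the numbers were 5, 5, 7 and 0 (33.4%, 45.5%, 51.6% and 0% of all genes). The edgeR test called no gene at all between R-1 and R-3 of L12, 0 members had an unadjusted p under 0.05, and DESeq2 called 0 members. In L13 they were 6, 5, 6 and 6 (22.1%, 19.7%, 48.9% and 17.6%). From HS-5 to HS-11 in L13 only CCS rose, and APX1, APX2, CAT2 and FSD1 fell. CAT1 and CAT3 rose from HS-1 to HS-5 and from HS-11 to R-1 in all 3 lines. The CAT3 rises in L13 (0.42 in both steps) were lost with the DESeq2 Wald test, the first also with DESeq2 size factors and without L13 HS-1 replicate 2 (0.24), L13 HS-5 replicate 1 (0.35) or L13 HS-5 replicate 2 (0.49), and the second also with only its 4 libraries and without L13 HS-11 replicate 1 (0.42), L13 HS-11 replicate 2 (0.43) or L13 R-1 replicate 1 (0.23).

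Whether a line moved differently from WT was tested as the difference of the changes. For L12, 3 members differed between HS-1 and HS-5 (5.2% of all genes), 5 between HS-5 and HS-11 (13.6%) and 5 between HS-11 and R-1 (18.4%). For L13 the members were 4 (7.48%), 7 (47.5%) and 5 (44.2%). CSD2 differed in every one of these steps except that from HS-11 to R-1 in L13.

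The 2 OE lines were also compared with each other. The HS-1 libraries gave 3 called members (17.1% of all genes, 8.28% higher and 8.78% lower in L13), HS-5 gave 4 (26.5%, 12.1% and 14.4%), HS-11 gave 6 (47.6%, 25.9% and 21.6%), R-1 gave 7 (32.6%, 20.8% and 11.8%) and R-3 gave 7 (43.5%, 29.3% and 14.2%). At HS-5, APX2 was higher in L13 than in L12 by 3.09 (SE 0.16, adjusted p = 2.91e-23) and CAT2 by 1.89 (SE 0.11, adjusted p = 1.11e-20), and CAT3 was lower by 1.16 on the log2 scale (log2 fold change -1.16, SE 0.12, adjusted p = 3.44e-11). At R-1 the L13 values of CSD1, CSD2, CCS and CAT2 were lower than those of L12, and those of FSD1, MSD1 and CAT3 were higher. Without L12 R-1 replicate 1 the R-1 calls of CSD1 (-0.65), CAT2 (-0.35) and MSD1 (0.65) were lost, and without L12 R-1 replicate 2 those of CSD1 (-1.04), CAT2 (-0.43), CAT3 (0.43) and MSD1 (0.68). Without L13 R-1 replicate 1 those of CAT3 (0.28) and MSD1 (0.51) were lost, and without L13 R-1 replicate 2 those of CSD1 (-0.35) and CAT2 (-0.29).

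Related enzymes outside the 10 were read from lists written for the pathway. Of 9 tested of the other superoxide dismutase and ascorbate peroxidase genes, 5 were lower in L13 than in WT at HS-11 (23.6% of all genes), none was higher, and the list median was -0.54 beside 0.30 over all genes. Of the 4 leaf markers, 3 were also lower there, and their part in this and the following lists was not tested. The lowest was FSD2, a chloroplast iron superoxide dismutase (-1.26, SE 0.21, adjusted p = 1.27e-06). In L12 at R-1, 5 were lower and 1 was higher (18% and 11.1% of all genes), with a median of -1.05 beside -0.28. Of the leaf markers 1 of 4 was lower in that comparison, and the flower marker PISTILLATA was higher. The lower genes were chloroplast enzymes, namely FSD2, FSD3, TL29, TAPX and SAPX, and SAPX, the stromal ascorbate peroxidase, was lowest (-2.21, SE 0.24, adjusted p = 5.01e-11). The higher gene was MSD2, a manganese superoxide dismutase, counted 7 and 14 times in L12 R-1 and 0 and 2 times in WT R-1, a ratio of 38.5 with a 95% counting interval of 9.42 to 339.

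The ascorbate and glutathione cycle, which regenerates the substrate of the peroxidases, had 9 of 13 tested genes lower in L13 than in WT at HS-11 and none higher (median -0.88), beside 23.6% of all genes lower and 29.5% higher. The lowest was VTC1, an enzyme of ascorbate synthesis (-1.76, SE 0.14, adjusted p = 2.07e-16). In L12 at R-1, 2 were higher and 2 lower, a share near the 29.2% of all genes called, the highest being the cytosolic glutathione reductase GR1 (0.98, SE 0.15, adjusted p = 4.37e-07) and the lowest the dehydroascorbate reductase DHAR1 (-1.10, SE 0.13, adjusted p = 1.16e-09). Of 13 peroxiredoxins and glutathione peroxidases, 8 were lower in L13 at HS-11 and none higher (median -1.31), and PRXIIE, a chloroplast peroxiredoxin, was lowest (-2.17, SE 0.12, adjusted p = 1.39e-21). In L12 at R-1, 4 were higher, led by GPX2 (0.94, SE 0.17, adjusted p = 1.38e-05), and 2 were lower, with PRXIIE again the lowest (-1.49, SE 0.16, adjusted p = 3.57e-11). Of all genes, 11.1% were higher and 18% lower there.

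For the copper and iron list in L13 at HS-11, 2 of 15 were higher and 6 lower (median -0.35), a share close to the 53.1% of all genes called. COPT1, a copper importer, was the highest (0.69, SE 0.23, adjusted p = 0.00685) and FER4 the lowest (-2.55, SE 0.15, adjusted p = 1.19e-20). Of 11 regulators of heat and oxidative stress, 3 were higher and 5 lower (29.5% and 23.6% of all genes), with HSFA4A highest (1.14, SE 0.39, adjusted p = 0.0087) and HSFA2 lowest. In L12 at R-1 only HSFA7A was higher among them (3.85, SE 0.48, adjusted p = 2.42e-09), and HSFA3 was the lower of 2 that fell below WT (-2.69, SE 0.39, adjusted p = 1.00e-07). Of all genes, 11.1% were higher and 18% lower in that comparison, so the share of called regulators was near that of all genes (29.2%).

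The genes whose treatment means were most like those of each member were found by Pearson r over the 15 treatments, as a description, since the points share libraries and depth. They were SVB for FSD1 (r = 0.99), AOR and APRR8 for CAT2 (0.98 and 0.97), EGY3 and BTI2 for APX2 (0.97 for both), AT3G47800 for CAT1 (0.97), ADK1 for MSD1 (0.95) and AT4G21105 for APX1 (0.95). CAT3, CCS and CSD2 had no gene above 0.89, 0.79 and 0.76. Among the members themselves, over the 14 treatments without WT R-3, APX1 and APX2 had the highest r (0.85), followed by CSD1 with CCS (0.73), and the lowest was that of APX2 with CAT1 (-0.85). The value for CSD1 rests on counts that cannot be told apart from those of AT1G08840.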

How the data were processed

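RNA from leaves of 30 samples was sequenced, and gene counts were analysed as deposited. According to the methods and labels, the authors mapped clean reads to TAIR10 by Bowtie2, ordered the alignments by Samtools, used Picard to discard duplicates and obtained the gene counts by Subread. The strand setting and the annotation are not given in the sources used here. Removal of duplicates can lower the counts of abundant transcripts, and an aligner that does not split reads can lose those that cross exon junctions.

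The matrix of whole-number counts was used. The files of single samples hold the same counts and were not used again, and 0 columns belonged to other samples. Genes were filtered with filterByExpr, libraries were scaled by TMM, and 1 quasi-likelihood model with a term for each of the 15 treatments was fitted to all 30 libraries (R 4.3.3, edgeR 4.0.16, limma 3.58.1). Contrasts were tested for each OE line against WT at a stage, between the OE lines, between successive stages, and for differences between the changes of an OE line and WT. P-values were adjusted by the Benjamini-Hochberg method over the 19761 genes tested. They rest on a spread between pools of plants that was estimated over all 15 treatments, with 2 pools in each. They do not measure a spread between independent transgenic lines. Intervals of ratios and detection floors cover counting error only. The procedure was tested on simulated data for L13 against WT at HS-11 only. Far fewer genes were changed there than the 53.1% called in the data, so the simulation does not cover shifts of that extent.

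Alternatives were DESeq2 size factors, no filter on low counts, the legacy quasi-likelihood fit, a replicate block, fits without the WT R-3 libraries or with only the 4 libraries compared, the DESeq2 1.42.0 Wald test, and leaving out each library. Scaling by library totals alone was added after seeing the data. The members and the gene lists were chosen with earlier results of these data known. Genes named besides the members were, in L13 against WT at HS-11 and L12 against WT at R-1, the highest and lowest called gene of each list, HSFA2, SPL7 and the MIR398 genes, and the 2 genes most like each member by Pearson r. Others are marked as chosen after their values were seen. Sequences and coordinates come from RefSeq's TAIR10.1.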

Additional observations from a re-analysis of the deposited data

Results flagged for a closer look

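The change of each gene from one stage to the next was compared between each OE line and WT, as the difference of the log2 changes (the change in the OE line minus that in WT, edgeR's quasi-likelihood test), and 29 of the 60 differences passed an adjusted p of 0.01. Between HS-1 and HS-5, the changes in L12 differed from those in WT for CAT2 (-0.81), CSD2 (1.90) and CCS (0.89). Between HS-5 and HS-11, the changes in L12 differed from those in WT for APX1 (-1.24), CAT2 (0.62), CAT3 (-0.67), CSD2 (-2.37) and CCS (-1.07). Between HS-11 and R-1, the changes in L12 differed from those in WT for APX2 (1.01), CAT2 (0.70), CSD1 (1.41), CSD2 (1.16) and FSD1 (-2.71). Between HS-1 and HS-5, the changes in L13 differed from those in WT for APX2 (1.48), CAT2 (1.00), CAT3 (-0.83) and CSD2 (0.95). Between HS-5 and HS-11, the changes in L13 differed from those in WT for APX1 (-2.53), APX2 (-4.86), CAT1 (0.83), CAT3 (1.46), CSD1 (-1.76), CSD2 (-1.80) and MSD1 (-1.29). Between HS-11 and R-1, the changes in L13 differed from those in WT for APX1 (2.22), APX2 (2.21), CAT2 (-0.52), CSD1 (1.20) and MSD1 (1.36). Of all genes, 5.2% differed for L12 from HS-1 to HS-5, 13.6% from HS-5 to HS-11 and 18.4% from HS-11 to R-1. For L13 the shares of all genes were 7.48%, 47.5% and 44.2%, and that of the members in the last step was near it. Both lines were set against the same WT libraries. Of these 29 calls, 15 were kept under every alternative and left-out library, and 14 were lost under at least 1 of them.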

How the results depend on the processing

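Of 100 comparisons of a member between an OE line and WT, 36 were called, and 19 of these calls were kept under every alternative and left-out library, while 17 were lost somewhere. The number of members called in L12 against WT at HS-1 rose from 0 to 1 with DESeq2 size factors, no filter, the legacy fit, the replicate block, without the WT R-3 libraries or with the DESeq2 Wald test, and to 4 with only the 4 libraries compared. At HS-11 it went from 2 to 1 in L12 with the DESeq2 Wald test and to 0 on library totals, and in L13 from 5 to 8 on library totals. In L13 against WT at R-1 it was 1 with no filter. In L13 it went from 5 to 8 between HS-5 and HS-11 on library totals and from 6 to 2 between R-1 and R-3 with only the 4 libraries compared. The differences of changes numbered 29, and 33 with no filter. Of the 20 pairs of a member and a gene most like it, 8 stayed without WT R-3. Leaving out each library gave 0 to 1 members in L12 at HS-11, 1 to 2 in L12 at R-3, 2 to 3 in L13 at HS-1, 4 to 8 in L13 at HS-5, 0 to 2 in L13 at R-1, 4 to 6 in L13 against L12 at R-1, and 23 to 31 differences of changes.

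Values turned only on library totals without TMM factors, a scaling that moved the median of all genes in WT between HS-11 and R-1 from 0.32 to 1.20. They became 0.11 for MSD1 from HS-1 to HS-5 in WT, 0.42 for CAT2, 0.36 for FSD1 and 0.50 for MSD1 from HS-11 to R-1 in WT, 0.052 for APX1 and 0.51 for CSD2 from HS-11 to R-1 in L12, and 0.33 for CAT2 and 0.59 for FSD1 from HS-1 to HS-5 in L13. The differences of L13 from WT became 0.47 for CAT2 and 0.65 for FSD1 from HS-5 to HS-11, and -0.77 for CSD2 and -0.69 for FSD1 from HS-11 to R-1. The cause was not tested.

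The replicate numbers did not pair the samples. Over 105 pairs of treatments, deviations of same-numbered samples correlated at -0.21 to 0.14, and 3 pairs passed 0.1. With the replicate block, 327 of 330 member tests kept their call, 0 were lost and 3 were gained. The depth of the WT R-3 libraries limits every comparison with them.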
